A study of Mus musculus with 5 samples.

Results

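The acrosome is the enzyme-filled cap of the sperm head. Spermatids build it from Golgi vesicles after meiosis, while CREM, a transcription factor of the cAMP pathway, switches on many spermatid genes through an element called the CRE. Circular RNAs (circRNAs) of Crem and of 9 acrosome and sperm-head genes (Spata16, Zpbp, Zpbp2, Gopc, Dpy19l2, Sun5, Spam1, Acrbp and Spaca1) were taken by host gene symbol from a table of mouse testis circRNAs. This gave 32 of the 11957 circRNAs listed, from 5 of the 10 genes. A locus of 9 transcripts antisense to Spata16, XLOC_123756, was taken by its identifier from 16356 long non-coding RNA (lncRNA) loci. circRNAs arise when a splice donor is joined backwards to an acceptor upstream of it, so each is defined by the 2 genomic ends that its junction connects, and its closed form protects it from enzymes that trim RNA ends.

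Testes came from male C57BL/6J mice of 10 weeks given triptolide into the stomach (50 µg/kg daily) or saline as control, and the organs were taken at 35 days. Triptolide is a diterpenoid of the vine Tripterygium wilfordii that blocks transcription by RNA polymerase II. There were 3 triptolide and 2 control libraries of total RNA without ribosomal RNA. The labels give 6 mice per group without tying mice to libraries, and a library may be 1 mouse or several, so the p-values speak only for the spread among these 5 libraries. Several triptolide columns share 1 header, so triptolide libraries are called A, B and C for circRNAs and A, B and 3 for lncRNAs, and the letters do not match between the tables. circRNA levels are in SRPBM, a count of back-splice junction reads divided by library size. One read was worth 8.29 to 9.57 SRPBM, the smallest value listed was 2 reads, and the libraries held 32806, 44319 and 35323 junction reads in triptolide and 39999 and 43680 in control. lncRNA expected counts summed to 947298, 1058427 and 1029547 in triptolide and 964886 and 1071012 in control.

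Of 13 markers of meiotic and other germ cells, 8 were circRNA hosts, with summed levels of 2293 to 2810 SRPBM in triptolide and 2700 to 3326 in control. Of 8 spermatid markers only Prm2 and Odf2 were hosts, with sums of 95 to 210 in triptolide and 290 to 746 in control. Much of this came from 1 Prm2 circRNA, with 86, 79 and 52 SRPBM in triptolide and 624 and 290 in control. An Odf2 circRNA went the other way, with 19, 70 and 43 SRPBM in triptolide and 0 in both controls. Dmrt1 was the 1 of 8 Sertoli cell markers with circRNAs (105 to 139 in triptolide, 124 and 140 in control), and Adgre1 the 1 of 4 immune markers (0, 43 and 0 in triptolide, 17 and 0 in control). None of the markers of Leydig cells, smooth muscle, endothelium, epididymis, red blood cells or fat was a host in this table. The part of these levels in the results below was not tested, and in whole testis fewer cells of a type and less RNA per cell cannot be told apart.

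The promoters of the genes, from RefSeq (GRCm38.p6, 250 bases before to 50 after the start site), were searched on both strands for the CRE, TGACGTCA, and its half-site TGACG, which lies within the CRE. Crem itself had no entry, so its promoter was not searched. Of the 9 genes with an entry, 0 held the full CRE, which 2.03% of 27025 genes hold. The half-site was found in 5, namely Zpbp2, Gopc, Dpy19l2, Acrbp and Spaca1, against 23% of all genes. In the list of other acrosome genes 10 of 43 genes held the half-site and 3 the full CRE, and in the list of CREM partners and targets 13 of 28 and 2. A match of letters is not a bound site. The 250 bases before the start are printed for Gopc (chr10:52382125-52382374, minus strand), a gene with 1 circRNA and a half-site starting 161 bases before the start, for Spaca1 (chr4:34050066-34050315, minus strand), a gene with no circRNA and half-sites 69 and 59 bases before the start, and for Spata16 (chr3:26637381-26637630, plus strand), which has circRNAs and an antisense locus and no half-site in the window. Capitals mark the half-site as TGACG or, on the other strand, CGTCA.
Gopc: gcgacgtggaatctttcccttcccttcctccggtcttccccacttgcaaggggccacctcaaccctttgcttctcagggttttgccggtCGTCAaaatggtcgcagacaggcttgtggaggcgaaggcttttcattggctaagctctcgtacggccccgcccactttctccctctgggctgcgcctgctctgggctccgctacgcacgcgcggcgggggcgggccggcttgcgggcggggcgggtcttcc
Spaca1: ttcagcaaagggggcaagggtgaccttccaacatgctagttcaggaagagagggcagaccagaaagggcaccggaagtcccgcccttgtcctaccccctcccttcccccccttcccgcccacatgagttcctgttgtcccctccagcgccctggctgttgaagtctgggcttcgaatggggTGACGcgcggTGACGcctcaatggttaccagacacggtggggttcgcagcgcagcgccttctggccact
Spata16: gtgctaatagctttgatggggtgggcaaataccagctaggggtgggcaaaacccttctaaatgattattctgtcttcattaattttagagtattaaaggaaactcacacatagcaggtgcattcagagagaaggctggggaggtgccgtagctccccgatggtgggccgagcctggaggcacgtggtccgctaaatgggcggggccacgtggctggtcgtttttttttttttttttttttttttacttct

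Most of the circRNAs were low, and many were seen in a single library. Of the 32 circRNAs, 14 were above 0 in 1 library only and 8 in all 5 (43.8% and 25%), against 54.4% and 11.7% of all circRNAs. Their genomic spans ran from 633 to 65766 bases with a median of 21719, beside 16118 for all circRNAs. Summed over the members, levels were 1074, 1558 and 1195 SRPBM in triptolide and 1619 and 1670 in control, or 113, 177 and 138 junction reads in triptolide and 185 and 203 in control. In this pooled sum, which was not tested, every triptolide library lay below both controls. By gene, this held only for Zpbp among the 4 gene sums tested, and the groups overlapped for Crem, Spata16 and Dpy19l2. The pooled values therefore do not show a decrease shared by the genes. Zpbp had 419, 503 and 600 SRPBM in triptolide and 727 and 669 in control. Without the 2 circRNAs listed at 0 in control 1 alone, a choice made after the values were seen, the sums over the members were 807, 1187 and 917 SRPBM in triptolide and 1619 and 1240 in control.

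**Figure D1:**
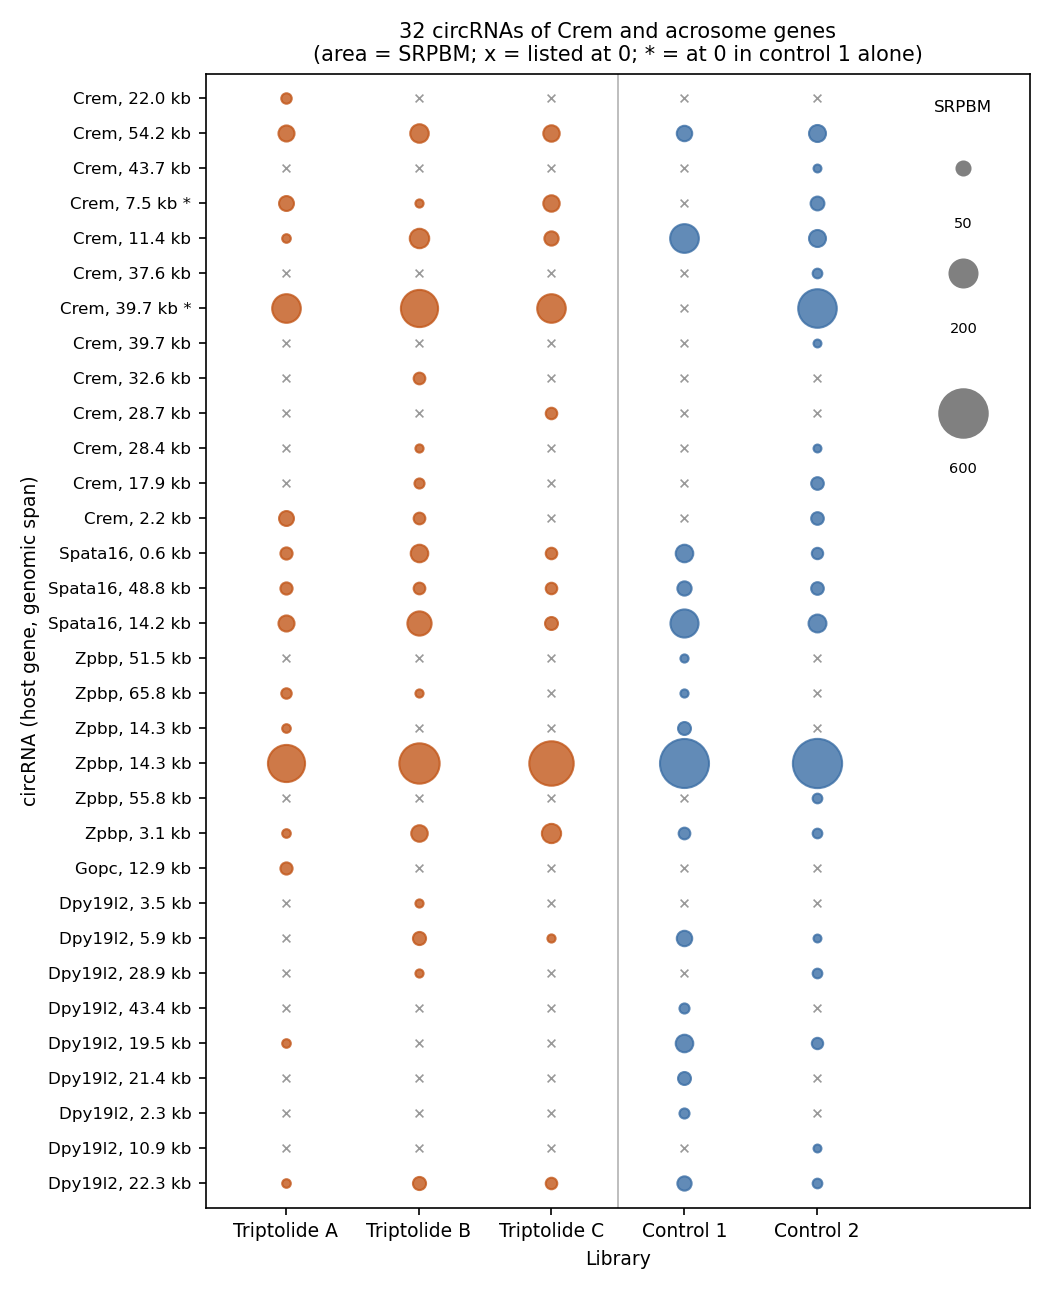
Level of each of the 32 circRNAs (rows, by host gene and genomic span in kb) in each library (columns), as circle area in SRPBM, with a cross where the circRNA is listed at 0 and an asterisk where it is at 0 in control 1 alone. One Zpbp circRNA is high in all 5 libraries, and the highest Crem circRNA is listed at 0 in control 1.

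Triptolide was compared with control for every circRNA above 0 in at least 2 libraries, with limma on log2(SRPBM + 16), a scale that understates the change of low circRNAs. Of 5457 circRNAs tested, 0 (0%) passed an adjusted p of 0.05, and 360 (6.6%) had an unadjusted p under 0.05. edgeR on the recovered reads also called 0, with 123 at an unadjusted p under 0.05. Of the members, 18 could be tested and 0 passed at either level in limma. The groups did not overlap for 3 of them, all with lower values in triptolide, and for 0 with higher values. Of the 3, the circRNA of Dpy19l2 met the filter of 2 libraries only through the controls. Over all circRNAs tested the groups did not overlap for 10.5% with lower and 6.78% with higher values in triptolide. Log2 fold changes had a median of -0.21 over the 18 members and -0.06 over all circRNAs tested. Summed per host gene, 0 of 2342 genes (0%) passed in limma and 0 in edgeR, and 147 (6.28%) had an unadjusted p under 0.05 in limma. Of the 4 member genes whose sums were tested, 0 had an unadjusted p under 0.05 in limma and 1, Dpy19l2, had one in edgeR, as did 90 of all 2342 sums (3.84%).

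Crem encodes CREM, the CRE-binding factor without which mouse spermatids do not mature, and it gave the most circRNAs of the 10 genes. Its 13 circRNAs lie on chromosome 18 between 3273422 and 3327591, as the table gives positions. Only 95 of 3496 host genes (2.72%) had as many or more, and the median host had 2. Of the 13, 9 shared the upper end 3327591 and 4 shared the lower end 3287904. Among the 184 host genes with at least 10 circRNAs, the end used most joined a median of 36.4% of the circRNAs, and 8 of the 184, Crem included, reached the 69.2% of Crem. The 13 circRNAs thus differ mostly in where their lower end lies, over spans of 2231 to 54170 bases.

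**Figure D2:**
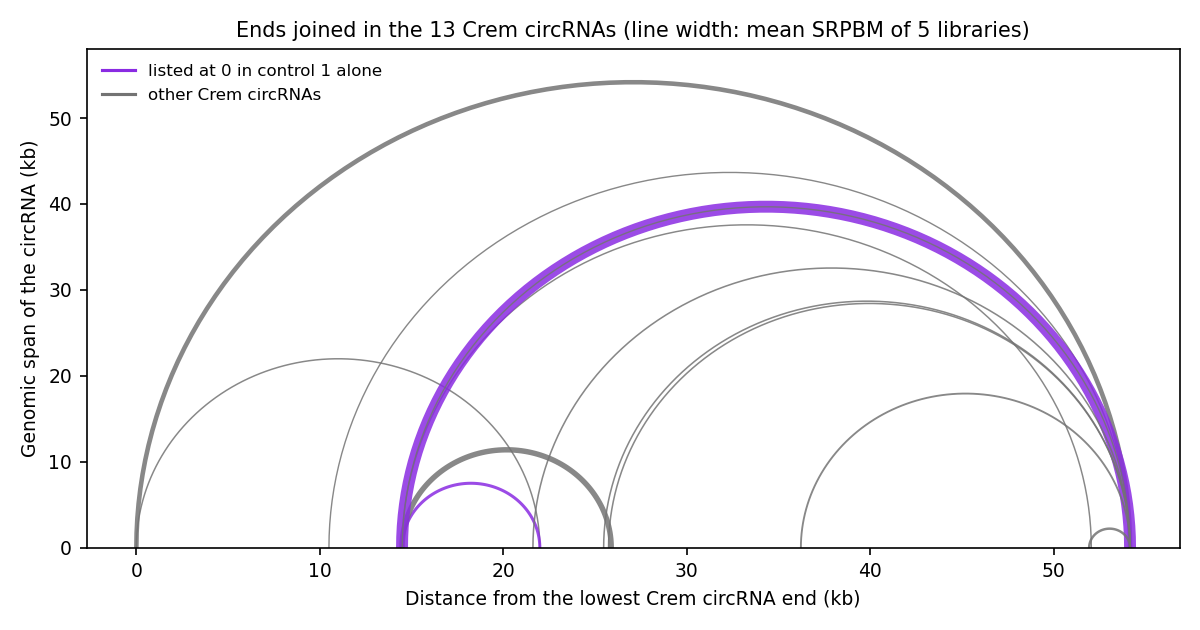
Ends joined by the 13 Crem circRNAs, as arcs along the distance from the lowest end (kb), with the arc height giving the genomic span (kb) and the line width the mean SRPBM of the 5 libraries. Most arcs meet at 1 upper end, and both circRNAs listed at 0 in control 1 alone start at the same lower end.

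The highest Crem circRNA joined 3287904 and 3327591 and spanned 39688 bases. It had 210, 354 and 209 SRPBM in triptolide libraries, and 0 in control 1 and 381 in control 2. These levels correspond to 22, 40 and 24 reads in triptolide and 0 and 46 in control. Control 2 was the highest of all 5 libraries and control 1 stood alone at 0. The log2 fold change was 1.74 (95% interval -0.90 to 4.38, adjusted p = 0.68, limma), and 0.41 in edgeR on the reads. Without control 1 it was -0.58 and without control 2 it was 4.06 in limma, so that its sign turned on which control was kept. Each of these fits left 1 control library, so the spread of the controls was not measured.

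A second Crem circRNA, from 3287904 to 3295416, was also listed at 0 in control 1 alone. It had 57, 17 and 69 SRPBM in triptolide, and 0 in control 1 and 49 in control 2, with a log2 fold change of 0.87 (95% interval -1.02 to 2.76, adjusted p = 0.84, limma) that was -0.14 without control 1. These 2 were the only members at 0 in control 1 and above 0 in the other 4 libraries. The third well-detected circRNA on the same lower end, from 3287904 to 3299308, had its highest value in control 1. It had 19, 97 and 52 SRPBM in triptolide, and 211 in control 1 and 74 in control 2, with a log2 fold change of -1.15 (95% interval -2.66 to 0.37, adjusted p = 0.68, limma). It was -0.48 without control 1, -1.81 without control 2 and -0.71 without triptolide A. The widest circRNA, from 3273422 to 3327591, was above 0 in every library, at 66, 88 and 69 SRPBM in triptolide and 61 and 74 in control, with a log2 fold change of 0.11 (95% interval -0.90 to 1.12). The other 9 Crem circRNAs reached at most 57 SRPBM and were listed at 0 in control 1, 6 of the 13 being above 0 in 1 library only.

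Such zeros were more frequent in control 1 across the whole table. Among circRNAs with at least 200 SRPBM in each of the other 4 libraries, 30 of 149 (20.1%) were listed at 0 in control 1. The same count was 1 of 124 for triptolide A, 0 of 115 for B, 0 of 123 for C and 1 of 116 for control 2. Of the members only the highest Crem and the highest Zpbp circRNA had 200 SRPBM in those 4 libraries, and the Zpbp circRNA had 615 SRPBM in control 1. Control 1 had the fewest circRNAs above 0, with 4542, 5637 and 4553 in triptolide, 4510 in control 1 and 5484 in control 2, and its 39999 junction reads lay between those of the other libraries. Without control 2, limma called 130 circRNAs, of which 120 (92.3%) were at 0 in control 1. That fit left control 1 alone in its group and did not measure the spread of the controls. Whether such a 0 is a measured absence is not stated in the labels or headers, and the part of these zeros in the Crem values was not tested.

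**Figure D3:**
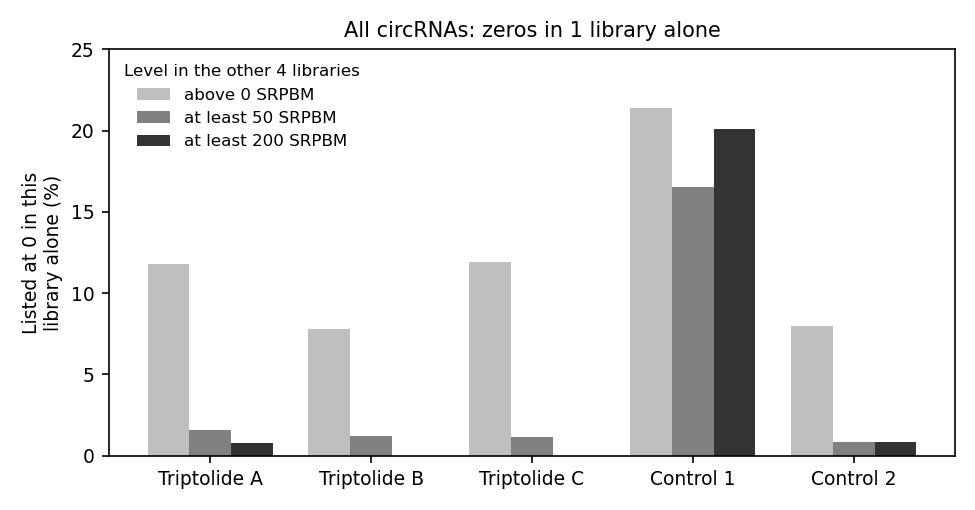
Percentage of all circRNAs listed at 0 in 1 library alone (bars per library), among those above 0, at 50 SRPBM or more, or at 200 SRPBM or more in each of the other 4 libraries. At the strictest level control 1 reaches 20.1% and the other 4 libraries stay at or below 0.862%.

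Summed over its 13 circRNAs, Crem had 437, 669 and 433 SRPBM in triptolide, and 272 in control 1 and 732 in control 2. The controls enclosed all 3 triptolide libraries, with means of 513 ± 135 (SD, n = 3) in triptolide and 502 ± 325 (SD, n = 2) in control. The log2 fold change of the sum was 0.16 (95% interval -0.81 to 1.13, adjusted p = 0.98, limma), and it was -0.53 without control 1 and 0.85 without control 2. Without the 2 circRNAs at 0 in control 1 alone, a sum chosen after the values were seen, Crem had 170, 298 and 155 SRPBM in triptolide and 272 and 302 in control.

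**Figure D4:**
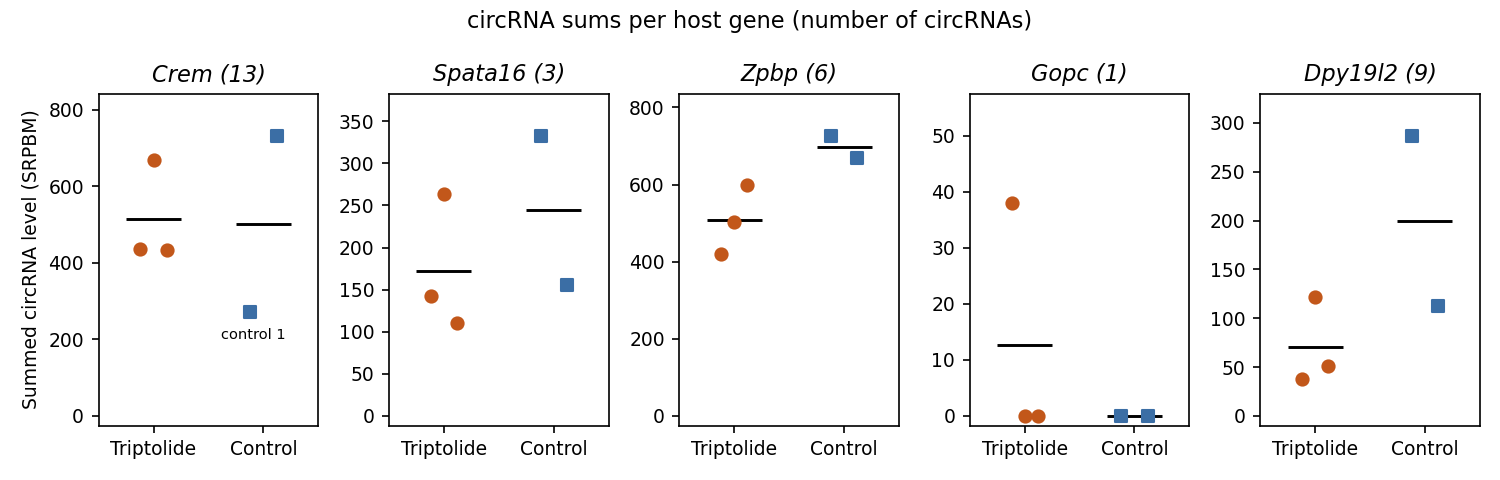
Summed circRNA level (SRPBM, axes differ between panels) of each gene with circRNAs, by library (points) and group mean (bars), triptolide left and control right. The groups do not overlap for Zpbp, and the Crem controls lie on either side of the triptolide libraries.

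Spata16 encodes a Golgi-linked protein of spermatids, and its loss in humans gives round-headed sperm without an acrosome. Its 3 circRNAs (chromosome 3) were above 0 in every library. The highest joined 26913187 and 26927389 and had 66, 150 and 43 SRPBM in triptolide and 202 and 82 in control. Control 1 was highest and triptolide B lay between the controls. Its log2 fold change was -0.65 (95% interval -2.01 to 0.70, adjusted p = 0.81, limma). It was -0.076 without control 1, -1.23 without control 2, -1.07 without triptolide B and -0.33 without triptolide C. A circRNA that shares the upper end, from 26878563 to 26927389, had 38, 35 and 34 SRPBM in triptolide and 52 and 41 in control. The groups did not overlap, at 4 reads in each triptolide library and 6 and 5 in control, and the log2 fold change was -0.27 (95% interval -1.49 to 0.95). The third circRNA spanned 633 bases, from 26667314 to 26667946, the shortest of the members, with 38, 79 and 34 SRPBM in triptolide and 79 and 33 in control. Summed, Spata16 had 142, 264 and 111 SRPBM in triptolide and 333 and 156 in control, with a log2 fold change of -0.46 (95% interval -1.55 to 0.62, adjusted p = 0.88, limma), which was 0.048 without control 1.

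For the locus antisense to Spata16 no difference between the groups passed the test. XLOC_123756 (chromosome 3, 26850316 to 26879117, minus strand, class antisense, listed by the authors as not known before) lies opposite the plus-strand gene and overlaps 1 of the 3 Spata16 circRNAs, the one starting at 26878563, by 555 bases. Its expected counts were 237, 284 and 245 in triptolide and 283 and 244 in control. Scaled to the library these are 250, 268 and 238 CPM (counts scaled to library size) in triptolide and 293 and 228 CPM in control, so the controls again enclosed all triptolide libraries. Means were 252 ± 15.3 CPM (SD, n = 3) in triptolide and 261 ± 46.3 CPM (SD, n = 2) in control. edgeR's quasi-likelihood test on locus sums gave a log2 fold change of -0.04 ± 0.19 (SE), a fold of 0.973 with a 95% interval of 0.74 to 1.28, and an adjusted p of 0.93. In the same test 505 of 6889 loci (7.33%) passed. The libraries were stranded, but the labels do not state whether strand was used in counting, and reads of Spata16 itself cannot then be told apart from those of the locus.

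Within the locus, 2 transcripts of 6 exons and 1 short transcript carried most counts, and most minor ones were above 0 in only some libraries. All 9 transcripts end within 50 bases of each other at the upper end, where this minus-strand locus starts. TCONS_00204648 (6 exons) had expected counts of 92.0, 84.2 and 116 in triptolide and 137 and 127 in control. The groups did not overlap, and its share of the locus was 38.6 ± 8.8% in triptolide (SD, n = 3) and 50.2 ± 2.6% in control (SD, n = 2). Its log2 fold change was -0.42 (95% interval -1.04 to 0.20, adjusted p = 0.65, edgeR). TCONS_00204649, also of 6 exons, had 62.4, 97.7 and 28.0 in triptolide and 55.7 and 53.4 in control, so that the triptolide libraries enclosed the controls. TCONS_00204652, a transcript of 2 exons and 1313 bases of span, had 53.7, 69.9 and 29.9 in triptolide and 60.5 and 37.3 in control.

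The remaining 6 transcripts had at most 33.2 counts in any library. TCONS_00204644, with 7 exons the longest chain, had 33.2 counts in triptolide 3 and 0 elsewhere. TCONS_00204645 had 0, 20.7 and 0 counts in triptolide and 1.01 and 4.45 in control. TCONS_00204646 had 0, 0.31 and 0 counts in triptolide and 0.01 and 10.2 in control. These 3 multi-exon chains were thus each carried mainly by 1 library. TCONS_00204647 had 0, 8 and 25.0 counts in triptolide and 0 and 10.2 in control. TCONS_00204650, of 2 exons, had 20.8, 0 and 0 in triptolide and 27.3 and 0 in control. TCONS_00204651 had 8.16, 3.22 and 13.2 in triptolide and 1.62 and 1.60 in control, without overlap but too low for the test. Of the 9 transcripts 4 were tested and 0 passed. Among all 13534 lncRNA transcripts edgeR called 0 (0%). In that fit 1339 (9.89%) had an unadjusted p under 0.05. DESeq2 called 327 transcripts, none of this locus. The groups did not overlap for 14.5% of these transcripts with lower and 15% with higher counts in triptolide. Expected counts divide reads shared between isoforms by an estimate, so values of single transcripts are less certain than that of the locus.

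**Figure D5:**
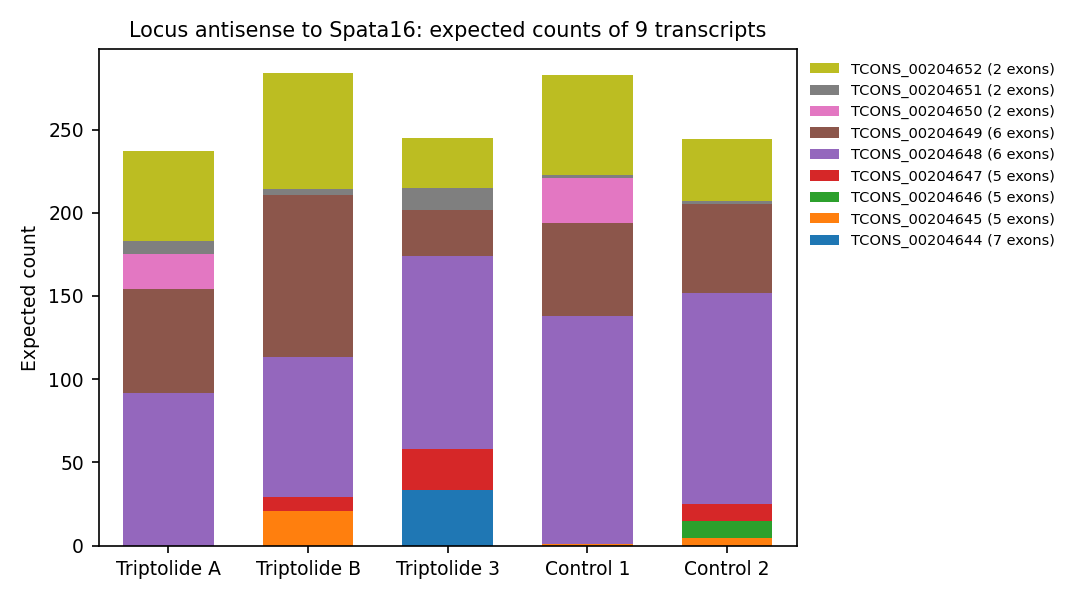
Expected counts of the 9 transcripts of the locus antisense to Spata16, stacked per library, triptolide left and control right. Bars reach 237 to 284 counts in triptolide and 244 to 283 in control, and the makeup of the bars differs between libraries of 1 group.

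Zpbp encodes a protein of the acrosomal matrix that binds the zona pellucida, and one of its circRNAs was the highest of all members. That circRNA (chromosome 11, 11403981 to 11418287, 14307 bases) ranked 63 of 11957 by its mean over the 5 libraries. It had 353, 416 and 505 SRPBM in triptolide and 615 and 621 in control, or 37, 47 and 58 reads in triptolide and 70 and 75 in control. All 3 triptolide libraries lay below both controls, with means of 425 ± 76.4 (SD, n = 3) in triptolide and 618 ± 4.2 (SD, n = 2) in control. The log2 fold change was -0.54 (95% interval -1.20 to 0.12), with an adjusted p of 0.68 in limma. It held 86% of the summed level of the gene.

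A nested Zpbp circRNA that shares the upper end, from 11415188 to 11418287, had 19, 70 and 95 SRPBM in triptolide and 35 and 24 in control. Triptolide A was the lowest and C the highest of the 5 libraries. The other 4 Zpbp circRNAs reached at most 43 SRPBM. Summed over 6 circRNAs, Zpbp had 419, 503 and 600 SRPBM in triptolide and 727 and 669 in control, again without overlap. The log2 fold change of the sum was -0.46 (95% interval -1.08 to 0.15, adjusted p = 0.77, limma). Among all host gene sums the groups did not overlap for 11.5% with lower and 7.13% with higher values in triptolide.

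Gopc encodes a Golgi protein that carries cargo in vesicles, and mice without it make round-headed sperm. Its 1 circRNA (chromosome 10, 52346049 to 52358937) had 38 SRPBM, or 4 reads, in triptolide A and was listed at 0 in the other 4 libraries, too few for a test.

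Dpy19l2 encodes a protein of the inner nuclear membrane that holds the acrosome to the nucleus, and its 9 circRNAs (chromosome 9, 24581130 to 24680810) had the lowest p of the gene sums. Summed, it had 38, 122 and 51 SRPBM in triptolide, and 287 in control 1 and 113 in control 2, or 4, 14 and 6 reads in triptolide and 33 and 14 in control. Triptolide B lay above control 2, so the groups overlapped. The log2 fold change was -1.32 (95% interval -2.66 to 0.03), with an adjusted p of 0.76 in limma and in edgeR on the reads, where the unadjusted p was 0.039. It was -0.70 without control 1 and -1.93 without control 2.

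The Dpy19l2 circRNA with the smallest p joined 24643712 and 24663172. It had 19, 0 and 0 SRPBM in triptolide and 79 and 33 in control, or 2, 0 and 0 reads in triptolide and 9 and 4 in control. The groups did not overlap, and the log2 fold change was -1.72 (95% interval -3.46 to 0.03, adjusted p = 0.68, limma). With 1 triptolide library above 0, this circRNA met the filter of 2 libraries only through the controls, where it is high. Its size followed the constant added before the logarithm, at -4.26 with 1 and -0.89 with 50, and was -2.82 in edgeR on the reads. The highest circRNA of the gene by mean, from 24658558 to 24680810, had 19, 44 and 34 SRPBM in triptolide and 52 and 24 in control, with a log2 fold change of -0.14 (95% interval -1.56 to 1.27). Of the other 7, 5 were above 0 in 1 library only. No end was shared by more than 3 of the 9 circRNAs, unlike the common upper end in Crem.

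The other 5 genes had no circRNA in the table. They were Zpbp2, the paralogue of Zpbp, and Sun5, which encodes a nuclear envelope protein that holds the sperm tail to the head. They also included Spam1, the sperm surface hyaluronidase, Acrbp, which binds the precursor of the protease acrosin, and Spaca1, a protein of the acrosomal membrane. For Sun5 the lncRNA table held 1 antisense transcript (XLOC_108606), with 3 expected counts in control 2 and 0 in the other 4 libraries, a locus named after its counts were seen.

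Other genes of the same processes were taken from lists of acrosome genes and of CREM partners and targets. Of 53 further acrosome genes, 13 were hosts of 73 circRNAs, 41 of them from Vps13b, a Golgi gene needed for the acrosome in mice. Of 35 tested, 0 passed in limma, and the median log2 fold change of the list was -0.07. An unadjusted p under 0.05 was found for 2, both of Vps13b and lower in triptolide, against 6.6% of all circRNAs. Both were listed at 0 in all triptolide libraries. They met the filter of 2 libraries only through the controls, which fixed their direction. For the list the groups did not overlap for 7 with lower values in triptolide, those 2 included, and 2 with higher values. The shares of all circRNAs given above, under the same filter, were 10.5% and 6.78%. Most of the list's circRNAs without overlap were of Vps13b. Of the 9 tested from other genes, 0 had an unadjusted p under 0.05, and the groups did not overlap for 1 with lower and 1 with higher values. The higher one, of Hook1, was at 0 in both controls and met the filter only through triptolide. Of 38 genes that work with CREM or are targets of it, 12 were hosts of 37 circRNAs. Of 15 tested, 0 passed, 1 with lower and 1 with higher values had an unadjusted p under 0.05, and the median was -0.10. That with higher values, of Odf2, likewise met the filter only through triptolide. Values without overlap were lower in triptolide for 1 and higher for 2 of the 15.

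The Prm2 circRNA (chromosome 16, 10791405 to 10791857), from the protamine gene that is a known CREM target, had 86, 79 and 52 SRPBM in triptolide and 624 and 290 in control. All 3 triptolide libraries lay below both controls, with a log2 fold change of -2.35 (95% interval -3.37 to -1.33). Its adjusted p was 0.68 in limma over all circRNAs tested and 3.4e-05 in limma over those above 0 in all 5 libraries. The log2 fold change was the same in both fits, so the adjusted p depended on which circRNAs were fitted beside it. The Odf2 circRNA (chromosome 2, 29893444 to 29904107), from a gene of the outer dense fibres of the tail, had 19, 70 and 43 SRPBM in triptolide and was listed at 0 in both controls. Camk4, a kinase of the pathway, had 105, 62 and 121 SRPBM in triptolide and 52 and 58 in control at its 1 circRNA (chromosome 18, 33077993 to 33129833). Tbpl1, which encodes a TATA-binding protein relative needed for spermatids, had 57, 79 and 26 SRPBM in triptolide and 114 and 66 in control (chromosome 10, 22707589 to 22712091). Creb1, a CRE-binding relative of CREM, had 200, 141 and 113 SRPBM in triptolide and 255 and 149 in control (chromosome 1, 64550849 to 64576329), and Brwd1, a chromatin gene of spermatids, 19, 0 and 43 in triptolide and 0 in both controls (chromosome 16, 96064750 to 96068627).

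Vps13b circRNAs too were among those listed at 0 in control 1. One of them (chromosome 15, 35417511 to 35472064) had 277, 301 and 557 SRPBM in triptolide, and 0 in control 1 and 339 in control 2. Without control 2 this circRNA and 2 others of Vps13b passed in limma, all 3 at 0 in control 1. A further Vps13b circRNA (chromosome 15, 35438713 to 35472064), sharing the upper end, had 47, 53 and 52 SRPBM in triptolide and 105 and 99 in control, with no zero and no overlap, and a log2 fold change of -0.82 (95% interval -1.82 to 0.18, adjusted p = 0.68, limma). Another (35668701 to 35674952) had 57, 62 and 43 SRPBM in triptolide and 0 and 41 in control. A pair of Vps13b circRNAs (35533296 to 35652366 and 35597395 to 35674952) were listed at 0 in all triptolide libraries, with 35 and 16 SRPBM in control for one and 17 and 16 for the other. Hook1, which encodes a protein of the microtubule sleeve that shapes the sperm head, had 28, 17 and 26 SRPBM in triptolide and 0 in both controls (chromosome 4, 96016409 to 96017025).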

How the data were processed

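Testis RNA was measured in 5 libraries. HISAT2 2.0.1, HTSeq 0.6.1, DESeq and bedtools 2.17.0 are named, without roles, per the submitters' processing notes. Those notes name a human build, but 32 of 32 circRNAs lay inside the mouse RefSeq gene of their symbol (GRCm38.p6), so coordinates are printed as deposited. The deposited circRNA score is SRPBM, from the table's name, cut down to whole numbers by the authors. For 99.96% to 99.98% of values above 0 it equals a whole number of reads times 1 step per library, cut to a whole number, which gave the reads. Expected counts of lncRNA transcripts were deposited by the authors, per the file headers. They were rounded and summed per locus. The quasi-likelihood F test of edgeR 4.0.16 was run in R 4.3.3, with TMM scaling and its default filter on low counts, with standard errors and intervals from the F statistic. For circRNAs and host gene sums, limma-trend (version 3.58.1) took log2(SRPBM + 16). All p-values were adjusted by Benjamini-Hochberg over the whole table, with a threshold of 0.05. The code was tested on simulated data, with a spread between libraries that was set rather than taken from these data. For circRNAs, limma called 0 of 65 changes of 2 fold, 2 of 62 of 4 fold and 33 of 63 of 16 fold. For host gene sums it called 1 of 63, 10 of 55 and 59 of 79. A count of 0 passing in limma therefore does not show that changes of 2, 4 or 16 fold were absent. Columns of FPKM in the lncRNA table were left out. The mRNA table pairs no transcript with a gene and was not analysed here. Intervals come from the spread between libraries, which includes counting error. In limma and edgeR the spread of each feature is drawn toward a trend over all features fitted. An interval or p-value of 1 circRNA therefore does not rest on its own values alone. Constants of 1 and 50 were tried in place of 16.

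Named circRNAs were the highest of each gene, those at 0 in control 1 alone, those without overlap and a log2 fold change of at least 1 in size, and the 3 smallest p. In the other lists the 3 smallest p in each direction were taken. Other members are named after their values were seen. Members and lists were chosen with earlier results of these data known.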

Additional observations from a re-analysis of the deposited data

How the results depend on the processing

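Under every alternative run, 0 of the 4 gene sums and 0 of the antisense transcripts passed. Leaving out 1 library in turn, 0 to 1 member circRNAs and 0 to 4 circRNAs of the other lists passed, the 1 and the 4 both without control 2. The 4 were 3 of Vps13b and 1 of Prm2. Of those lists 1 circRNA (Prm2) passed among circRNAs above 0 in all 5 libraries, and 2 (Prm2 and Vps13b) with no filter, where 1 and 36 of all circRNAs passed. Over all circRNAs 130 passed without control 2 and 2 without control 1. Leaving out 1 library, the log2 fold change of the antisense locus ran from -0.18 to 0.13, turning positive without control 1. It ran from -0.58 to 4.06 for the highest Crem circRNA, from -0.14 to 1.88 for the Crem circRNA ending at 3295416, from -0.53 to 0.85 for the Crem sum, from -0.97 to 0.048 for the Spata16 sum from -0.53 to 0.24 for the highest Dpy19l2 circRNA, from -1.81 to -0.48 for the Crem circRNA ending at 3299308 and from -1.23 to -0.076 for the highest Spata16 circRNA. The 2 Crem circRNAs at 0 in control 1 changed sign without control 1, as did the Crem sum and the Spata16 sum. The Crem sum also changed sign without triptolide B (-0.041). The highest Dpy19l2 circRNA did so without control 1 or triptolide A (0.071), whereas the Dpy19l2 sum stayed negative, from -1.93 to -0.70. The cause of these changes of sign was not tested. Where 1 control was left, it was assumed to vary like the other group, with the spread drawn toward the trend over all features. Calls from those fits do not rest on a measured spread of the controls. Of the 2 members at 0 in control 1 alone, 1 was left with the other 4 libraries at 50 SRPBM or more, and 1 with a limit of 2 reads in place of 0. Over all lncRNA loci 260 to 573 passed with 1 library left out, 505 with none, and 501 with counts rounded after summing, which was added after the values were seen. No filter on low counts called 39 lncRNA transcripts in edgeR. No paired analysis was possible because the triptolide columns share headers, so fewer than 2 replicate numbers are common to both groups. With a constant of 1 or 50 in place of 16, the log2 fold change was 3.68 or 1.03 for the highest Crem circRNA and 2.56 or 0.43 for the one ending at 3295416, and neither constant brought a member past the threshold. Intervals of members with few reads include changes of several fold. Depth and the number of libraries both bear on that width and were not told apart.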
